A study of Schizosaccharomyces pombe with 4 samples.

Results

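The meu, mde, spo and isp genes of the fission yeast Schizosaccharomyces pombe are named for their part in sexual development. The meu genes were named as upregulated in meiosis, the mde genes as dependent on the meiotic forkhead factor Mei4, the spo genes from mutants that do not form spores, and the isp genes as induced during sexual differentiation. All genes on the array whose current symbol is one of these 4 prefixes and a number were taken, except meu13, mde2 and spo5, which were left out by the rule. This gave 38 of the 4880 genes named on the array, of which 17 were meu, 7 mde, 9 spo and 5 isp genes. The rule itself uses names and no measured value, though the families were chosen with earlier results of these data known. Each gene had 1 spot. Values on all 4 arrays were present for 35 of the 38, and these were tested among 4771 genes. The spots of meu14, meu22 and spo3 each lacked a value on 1 array.

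The arrays compared polyA RNA of cells 30 min after a shift from 25 °C to 36 °C with that of the strain kept at 25 °C, both in the rich medium YES. The wild type was JV558, and JV565 bore the allele mmi1-ts3, which is temperature-sensitive and was taken to its restrictive temperature by the shift; each strain had 2 arrays. JV565 is also called the mutant. No other allele or agent is named, and the cells of every group were vegetative. The series asks how the expression profile differs with and without the function of mmi1.

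Fission yeast starved of nitrogen stops dividing, mates, passes through meiosis and packs the nuclei into spores. Mei4 switches on many genes of the later steps, and the spore is then built from inside the cell, by a forespore membrane that grows from the spindle pole bodies and by a wall laid down within it. The RNA-binding protein Mmi1 marks certain meiotic transcripts for destruction while cells grow vegetatively, so that messages made at the wrong time do not accumulate. The isp genes differ in kind from the rest, since several of them serve nitrogen and amino acid supply in starved cells.

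Values are log2 ratios of 36 °C over 25 °C, with the median of all tested genes set to 0 on each array. Positive was read as higher at 36 °C, because 18 of 20 measured heat shock genes were above 0 on all 4 arrays; the labels do not settle the direction or the log base. The response of each strain was tested for a departure from 0 and the strain difference is the mmi1-ts3 response less that of the wild type, both by limma with Benjamini-Hochberg adjustment over all 4771 genes and a threshold of 0.05. SD is between the 2 arrays of a strain and SE is that of the fit, with n = 2 arrays per strain. A pair of values of a strain gives replicate 1 and then replicate 2. The records do not say whether the 2 arrays of a strain stem from separate cultures, and the p-values then reflect the spread of these arrays, which may be technical. The titles carry a code for replicate 2 of both strains, here the coded set, and none for replicate 1, the uncoded set. Over the last 400 of the 5188 lines of the value table, wild-type replicate 2 had a median of 0.67 and wild-type replicate 1 of −0.35, and the mmi1-ts3 replicates of 0.13 and 0.44. Over all other lines the 4 medians lay between −0.03 and 0.01. The spots of isp3, meu15, meu31, meu34 and spo15 lie in those last lines.

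Rises among these genes were about as frequent as among all genes in both strains. Falls were below the share of all genes in both, though each count is small. The rises in mmi1-ts3 were mostly those of meu genes. In the wild type, 4 of 35 rose (isp5, isp6, isp7 and mde7) and 3 fell (mde1, meu29 and spo9). Those are 11.4% and 8.57%, and over all genes 13.5% rose and 14.5% fell. In mmi1-ts3, 7 of 35 rose (isp5, isp6, meu23, meu26, meu27, meu32 and meu43) and 2 fell (mde1 and spo12), which is 20% and 5.71%, against 14.9% and 19.6% of all genes. With the array set as a block in the model, more genes passed over the whole array. That fit takes the gap shared by the array sets out of the error and has fewer residual degrees of freedom. Its p-values thus do not count that gap against a response, here and wherever the block fit is given. In the wild type 4 then rose and 5 fell (also mde5 and spo12), against 19.5% and 19.3% of all genes. In the mutant 10 rose (also isp3, isp7 and mde7) and 5 fell (also meu29, spo9 and spo20), against 21.2% and 24.3% of all genes. Of the 15 meu genes tested, 0 rose in the wild type and 5 in the mutant. The median response was 0.03 in the wild type and 0.33 in the mutant, against 0.03 and 0.005 over all genes. The medians on single arrays were −0.20 and 0.23 in the wild type and 0.10 and 0.30 in the mutant, so the wild-type arrays lay further apart than the medians of the strains. The calls of isp6 in both strains and of meu26 in mmi1-ts3 held with any 1 array left out, and each of the other calls was lost in at least 1 such fit. In the wild type the adjusted p without replicate 1 was 0.165 for isp5, 0.166 for isp7 and 0.0828 for mde1. Without replicate 2 it was 0.0987 for isp5, 0.237 for mde1, 0.275 for mde7, 0.0653 for meu29 and 0.184 for spo9. With either 1 of the mmi1-ts3 arrays left out it was 0.0549 for the wild-type call of isp5 and 0.0658 for that of mde1. In the mutant the adjusted p without replicate 1 and without replicate 2 was 0.247 and 0.123 for isp5, 0.0969 and 0.21 for mde1, and 0.212 and 0.0505 for spo12. Among the meu genes it was 0.125 and 0.0569 for meu23, 0.073 and 0.319 for meu27, 0.277 and 0.0594 for meu32, and 0.118 and 0.0836 for meu43.

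**Figure D1:**
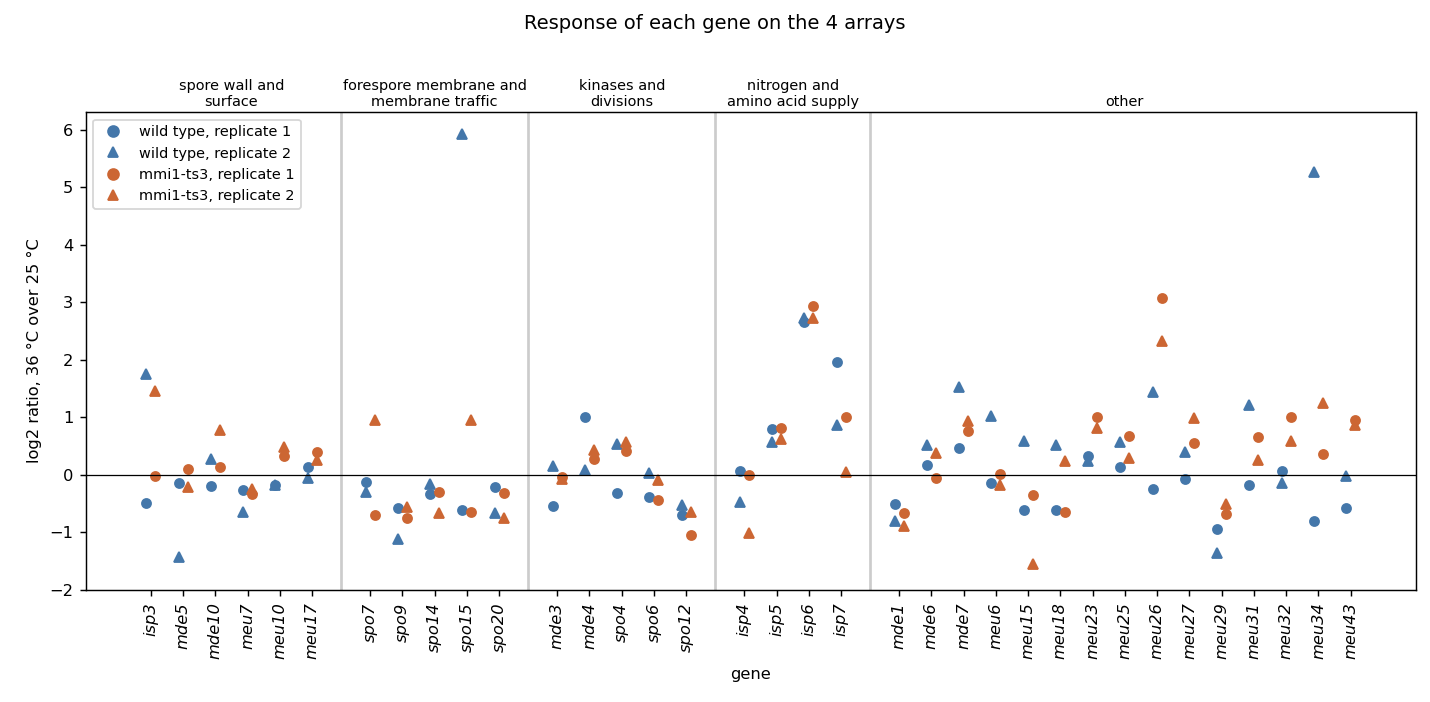
The log2 ratio of 36 °C over 25 °C (vertical axis) of each of the 35 genes on the 4 arrays, grouped by role, with 1 point per array; circles are replicate 1, triangles replicate 2, blue the wild type and orange mmi1-ts3. All 4 points of isp6 lie between 2.65 and 2.93, both mmi1-ts3 points of meu26 lie above both wild-type points, and the wild-type replicate 2 points of spo15 (5.92) and meu34 (5.27) stand far from the other 3.

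The strain difference did not pass the test for any of the 35 genes, nor for any of the 4771 (0% higher and 0% lower). The smallest adjusted p among the 35 was 0.998. At an unadjusted p under 0.05, 5 of the 35 were higher in mmi1-ts3 (meu10, meu23, meu26, meu32 and meu43) and 0 lower, against 1.03% higher and 0.859% lower over all genes. Both mmi1-ts3 arrays lay above both wild-type arrays for 8 genes (22.9%) and below both for 0, against 9.31% above and 20.4% below over all genes. All 8 were meu genes (meu10, meu17, meu23, meu26, meu27, meu29, meu32 and meu43), out of 15 meu genes tested. With this centring none of the 20 mde, spo and isp genes was separated in either direction, but some were under other scalings. Without centring isp5, isp6 and mde5 were separated higher, and with quantile normalization isp6 and spo9. With centring on neighbouring spots mde5, mde10 and spo9 were separated higher and isp7, mde1 and spo12 lower. Among all 35 genes 12, 10 and 12 were then separated higher, and over all genes 12.7%, 11.8% and 10.6% were. Separated lower were 15.1%, 15.8% and 18.4% of all genes. The difference between the families was not tested. The fitted difference was above 0 for 19 genes (54.3%), against 39.2% of all genes, and above 0 in both array sets for 12 (34.3%), against 18.4%. The median difference was 0.08 over the 35 genes, with 0.25 in the uncoded set and −0.08 in the coded, against −0.07 over all genes. By family the median difference was 0.29 for meu, −0.12 for mde, −0.09 for spo and 0.03 for isp genes. For the meu genes it was 0.54 in the uncoded set and 0.41 in the coded.

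**Figure D2:**
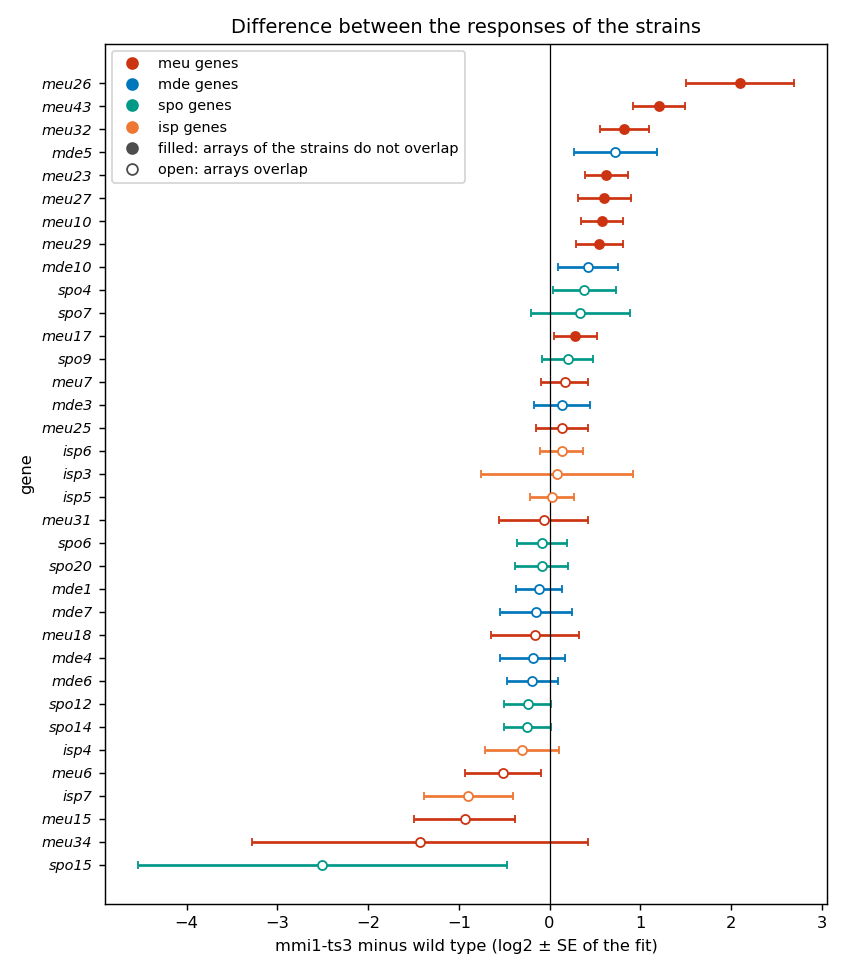
The strain difference of each gene (horizontal axis, log2, with the SE of the fit), ordered by size and coloured by family; filled points mark genes whose mmi1-ts3 and wild-type arrays do not overlap. All 8 filled points are meu genes and lie above 0, and the error bar of spo15 (SE 2.03) is the widest.

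The largest positive difference was that of meu26, which stood at −0.25 and 1.43 in the wild type and at 3.07 and 2.32 in the mutant. The mutant values were far above 0 and the groups did not overlap, but the wild-type arrays lay apart. It rose 6.48-fold in mmi1-ts3 (2.70 ± 0.53 SD, limma adjusted p = 0.00681), and its wild-type mean was 0.59 ± 1.18 (adjusted p = 0.344). The difference was 2.10 ± 0.60 SE, or 4.30-fold (unadjusted p = 0.014 by limma, adjusted p = 0.998), with 3.32 in the uncoded set and 0.89 in the coded. It was the sixth largest of all genes tested, and ran from 1.27 to 2.94 with 1 array left out.

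The next was meu43. It stood at −0.58 and −0.02 in the wild type and at 0.95 and 0.86 in the mutant, with the mutant arrays above 0 and wild-type replicate 2 close to it. It rose 1.88-fold in mmi1-ts3 (adjusted p = 0.02). The difference was 1.21 ± 0.28 SE (unadjusted p = 0.00624 by limma), 1.53 in the uncoded set and 0.89 in the coded. For meu32, also named mug11, the ratio was 0.07 and −0.14 in the wild type and 1.01 and 0.58 in the mutant. Both wild-type arrays were near 0 and both mmi1-ts3 arrays above them. Its rise in mmi1-ts3 was 1.73-fold (adjusted p = 0.026) and its difference 0.82 ± 0.27 SE (unadjusted p = 0.0241 by limma). With 1 array left out the difference ran from 0.93 to 1.49 for meu43 and from 0.61 to 1.04 for meu32.

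The ratio of meu23 was 0.33 and 0.23 in the wild type and 1.01 and 0.81 in the mutant, and that of meu27 was −0.07 and 0.39 in the wild type and 0.55 and 0.98 in the mutant. Both rose in mmi1-ts3, by 1.88-fold (adjusted p = 0.0115) and 1.70-fold (adjusted p = 0.0383). The median of the 10 spots on each side of meu23 in the table was 0.21 and 0.41 in the wild type and 0.06 and 0.67 in the mutant, and that of meu27 was −0.07 and −0.06 in the wild type and 0.37 and 0.63 in the mutant. The neighbours of meu27 were thus higher on both mmi1-ts3 arrays, and those of meu23 on replicate 2 alone. When each spot was centred on the median of its run of neighbours, both calls were lost (0.31, adjusted p = 0.234, and 0.27, adjusted p = 0.248) and the differences fell from 0.63 to 0.21 and from 0.61 to 0.21. The part of these neighbours in the result was not tested further. Of the 8 separated meu genes, all but meu23 stayed separated with this centring, and meu10 (0.74, adjusted p = 0.0156) and meu17 (0.53, adjusted p = 0.0437) passed as risen in mmi1-ts3.

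The transcript of meu29 was below 0 on all 4 arrays. Its ratio was −0.95 and −1.36 in the wild type and −0.69 and −0.52 in the mutant. It fell to 0.449-fold in the wild type (adjusted p = 0.0096), while in mmi1-ts3 its ratio was 0.658-fold (adjusted p = 0.0542, and 0.0414 in the block fit). The strain difference was 0.55 ± 0.26 SE, with 0.26 in the uncoded set and 0.84 in the coded.

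Among genes of the spore wall and surface, the fitted difference was above 0 for all 6 tested (39.2% over all genes), with a median of 0.35. In both array sets it was above 0 for 4 of the 6. With 1 array left out it fell as low as −1.04 for isp3 and −0.03 for meu7. When centred on neighbouring spots it was −0.25 for isp3. In either strain 0 of 6 rose or fell. With the array set as a block, isp3 passed as risen in mmi1-ts3 (0.71, adjusted p = 0.0359) and mde5 as fallen in the wild type (−0.78, adjusted p = 0.0437). The arrays lay apart in both cases, at −0.03 and 1.46 for isp3 in mmi1-ts3 and at −0.14 and −1.43 for mde5 in the wild type. The gene meu10 encodes a surface protein needed to assemble the ascospore wall. Its ratio stood at −0.18 on both arrays of the wild type and at 0.33 and 0.48 in mmi1-ts3, a difference of 0.58 ± 0.23 SE (unadjusted p = 0.0493 by limma). The wild-type values were nearly equal, and neither strain's response passed the test. The glucosidase gene meu17 had 0.13 and −0.05 in the wild type and 0.39 and 0.26 in the mutant, a smaller difference of 0.29 ± 0.24.

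The alpha-amylase homologue mde5, also named meu30, had −0.14 and −1.43 in the wild type and 0.10 and −0.22 in the mutant. Its difference of 0.72 ± 0.46 SE was 0.24 in the uncoded set and 1.21 in the coded, and ran from 0.08 to 1.37 with 1 array left out. Wild-type replicate 2 was the single low array. The other amylase homologue, meu7 (aah4), lay between −0.65 and −0.24 on all 4 arrays. The metalloprotease gene mde10, whose product acts in spore wall formation, lay between −0.20 and 0.77. For the spore surface protein gene isp3 the ratio was −0.49 and 1.76 in the wild type and −0.03 and 1.46 in the mutant. Here the array set, and not the strain, separated the values, and the strain difference was 0.08 ± 0.84 SE. The median of the neighbouring spots of isp3 was 0.72 and 1.002 on the coded and −0.30 and 0.26 on the uncoded arrays of the wild type and mmi1-ts3; its part in the values of isp3 was not tested.

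Of the genes of the forespore membrane and of membrane traffic, spo9 alone passed, and in the wild type alone. It encodes a prenyl diphosphate synthase and is also named erg20. Its ratio was −0.58 and −1.13 in the wild type and −0.75 and −0.57 in the mutant, with the arrays of the strains overlapping. It fell to 0.553-fold in the wild type (adjusted p = 0.0298), and the mmi1-ts3 value of 0.635-fold had an adjusted p of 0.0538, and 0.0416 in the block fit. The strain difference was 0.20 ± 0.28 SE. The genes spo14 and spo20 encode homologues of the secretory proteins Sec12 and Sec14, which growing cells use too. Both were below 0 on all 4 arrays, between −0.68 and −0.15 for spo14 and between −0.75 and −0.22 for spo20, whose mmi1-ts3 response passed with the array set as a block (−0.53, adjusted p = 0.0343).

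The forespore membrane gene spo7, also named mug79, was low on 3 arrays (−0.13, −0.30 and −0.69) and at 0.95 on mmi1-ts3 replicate 2. For spo15, which encodes a coiled-coil protein of the spindle pole body, the ratio was −0.62 and 5.92 in the wild type and −0.66 and 0.95 in the mutant. A single array was far above the other 3, and the strain difference of −2.51 ± 2.03 SE became 0.77 without it. Of the genes with a missing value, spo3, which encodes a forespore membrane protein, had −0.32 on wild-type replicate 1 and 0.008 and 0.21 in mmi1-ts3. For meu14, whose product sits at the leading edge of the forespore membrane, the values were 0.05 and 1.63 in the wild type and 0.26 on mmi1-ts3 replicate 1.

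Of 5 genes of the meiotic kinases and divisions, 0 passed in the wild type and spo12 fell in mmi1-ts3. The kinase gene spo4, a homologue of Cdc7, lay at −0.32 and 0.53 in the wild type and 0.40 and 0.58 in the mutant. Its partner spo6, a homologue of Dbf4, lay between −0.44 and 0.03 on the 4 arrays. The differences were 0.38 ± 0.35 SE for spo4 and −0.08 ± 0.28 SE for spo6. The kinase gene mde3 lay between −0.55 and 0.16, and mde4, a monopolin subunit that helps orient kinetochores, between 0.08 and 1.01. The ratio of spo12, also named wis3, was −0.70 and −0.53 in the wild type and −1.04 and −0.66 in the mutant, below 0 on every array. It fell to 0.555-fold in mmi1-ts3 (adjusted p = 0.0191); the wild-type value, 0.655-fold, had an adjusted p of 0.059, and 0.0296 when the array set was a block.

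The isp genes of nitrogen and amino acid supply included isp6, which had the smallest adjusted p of the 35 genes in both strains. Its product is a vacuolar serine protease, and the gene is also named prb1. The ratio was 2.65 and 2.73 in the wild type and 2.93 and 2.72 in the mutant, and the arrays of the strains overlapped. It rose 6.46-fold in the wild type (2.69 ± 0.05 SD, limma adjusted p = 0.000913) and 7.09-fold in mmi1-ts3 (2.83 ± 0.15 SD, adjusted p = 0.000764). The strain difference was 0.14 ± 0.24 SE. The amino acid permease gene isp5 had 0.80 and 0.58 in the wild type and 0.81 and 0.61 in the mutant. The values of the strains were alike within each array set, and it rose 1.61-fold (adjusted p = 0.0358) and 1.64-fold (adjusted p = 0.0268), with a difference of 0.03 ± 0.24 SE.

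The gene isp7 encodes a dioxygenase that takes part in the control of amino acid uptake. Its ratio was 1.97 and 0.87 in the wild type and 1.01 and 0.04 in the mutant. Replicate 1 was higher than replicate 2 in both strains, and within each array set mmi1-ts3 was lower. It rose 2.67-fold in the wild type (1.42 ± 0.78 SD, adjusted p = 0.0337), and its mmi1-ts3 mean was 0.52 ± 0.68 (adjusted p = 0.291, and 0.0366 when the model had a block for the array set). The strain difference was −0.89 ± 0.49 SE, with −0.96 and −0.83 in the uncoded and coded sets, and ran from −1.44 with 1 array left out (wild-type replicate 2) to −0.35 (wild-type replicate 1). It did not pass the test in the block fit either (adjusted p = 0.772). The oligopeptide transporter gene isp4 had 0.06 and −0.48 in the wild type and −0.004 and −1.02 in the mutant. The amino acid permease gene meu22 had −0.03 and 1.02 in the wild type and 0.56 on mmi1-ts3 replicate 1, with no value on replicate 2.

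Of the remaining genes, mde1 fell in both strains. It stood at −0.51 and −0.81 in the wild type and at −0.67 and −0.89 in the mutant, all 4 below 0 with the strains overlapping. It fell to 0.633-fold in the wild type (adjusted p = 0.0446) and to 0.583-fold in mmi1-ts3 (adjusted p = 0.023). The gene of the RNA-binding protein Mde7 had 0.46 and 1.52 in the wild type and 0.76 and 0.93 in the mutant. The wild-type rise of mde7, 1.98-fold, was at the threshold (adjusted p = 0.0499, and 0.133 when centred on neighbouring spots), and the mmi1-ts3 value of 1.79-fold had an adjusted p of 0.0668, and 0.0285 in the block fit. The muskelin homologue mde6 lay between −0.06 and 0.52 on the 4 arrays and meu25 between 0.14 and 0.68.

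The genes meu34, meu15, meu31 and meu6, whose roles are not stated here, had a wild-type replicate 2 far above replicate 1. For meu34, also named mug145, the ratio was −0.81 and 5.27 in the wild type and 0.35 and 1.25 in the mutant. The median of its neighbouring spots was 1.16 on that array and −0.05 on wild-type replicate 1. Its difference was −1.43 ± 1.85 SE with all arrays and 1.61 without wild-type replicate 2 (adjusted p = 0.846). For meu15 the ratio was −0.61 and 0.58 in the wild type and −0.36 and −1.55 in the mutant, so that its difference of −0.94 ± 0.55 SE was 0.25 in the uncoded set and −2.13 in the coded. The difference of meu15 was −0.34 without wild-type replicate 2 and also without mmi1-ts3 replicate 2. For meu31 it was −0.18 and 1.22 in the wild type and 0.66 and 0.25 in the mutant, and for meu6 −0.15 and 1.02 in the wild type and 0.01 and −0.18 in the mutant. The spot of meu6 is not among the last 400 lines. The gene meu18 followed the array set, at −0.61 and 0.51 in the wild type and −0.65 and 0.23 in the mutant.

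Gaps between the 2 arrays of a strain were more frequent among these genes than over all genes tested, but part of them lay in the last 400 lines of the table. The wild-type arrays lay over 1 log2 unit apart for 11 of 35 genes (31.4%), against 8.32% of all genes, and the mmi1-ts3 arrays for 5 (14.3%), against 5.43%. They lay over 2 units apart in the wild type for isp3, meu34 and spo15 (8.57% against 1.03%). All 3 lie in the last 400 lines of the table, as do meu15 and meu31 among the wild-type gaps over 1 unit. The wild-type gaps of isp7, mde5, mde7, meu6, meu18 and meu26 lie elsewhere. Of the mmi1-ts3 gaps over 1 unit, those of isp3, meu15 and spo15 lie in the last lines and only those of isp4 and spo7 outside them. Over the 35 genes, which are not independent replicates, the wild-type arrays correlated with r = 0.11 and the mmi1-ts3 arrays with r = 0.72. Over the 30 genes outside the last lines the values were 0.65 and 0.83, and over all genes 0.77 and 0.87. Without the 5 genes in the last lines, the counts of rises and falls were the same as with them, and the median strain difference was 0.14 in place of 0.08.

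**Figure D3:**
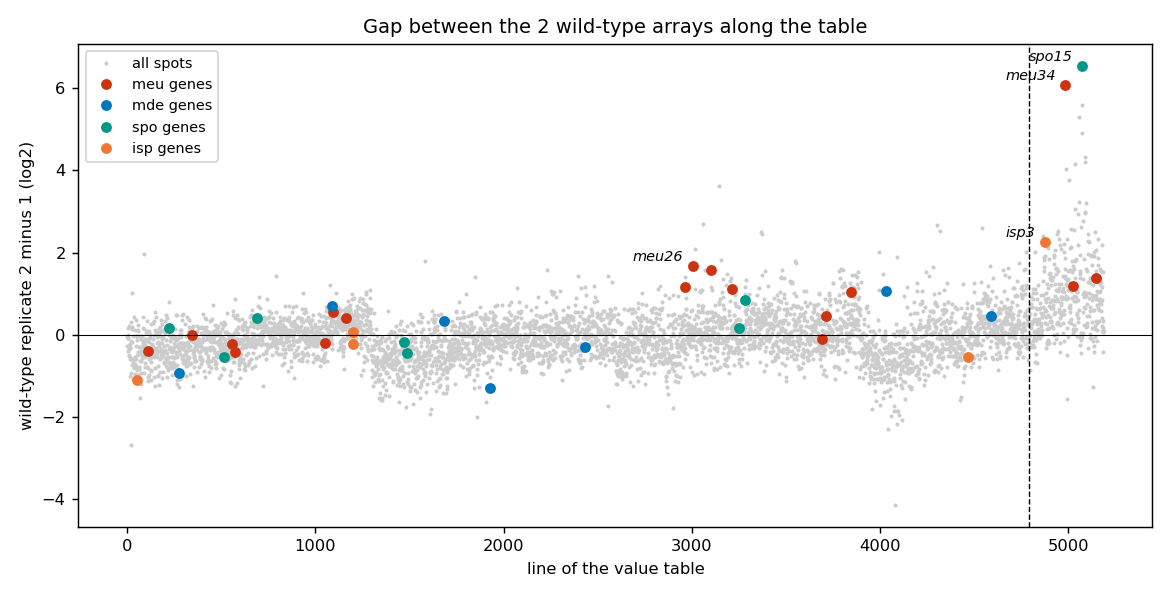
Wild-type replicate 2 minus replicate 1 (vertical axis, log2) of every spot against its line in the value table (horizontal axis), with the meu, mde, spo and isp genes coloured and the start of the last 400 lines dashed. Spots right of the dashed line lie mostly above 0, and spo15 and meu34 stand highest there.

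**Figure D4:**
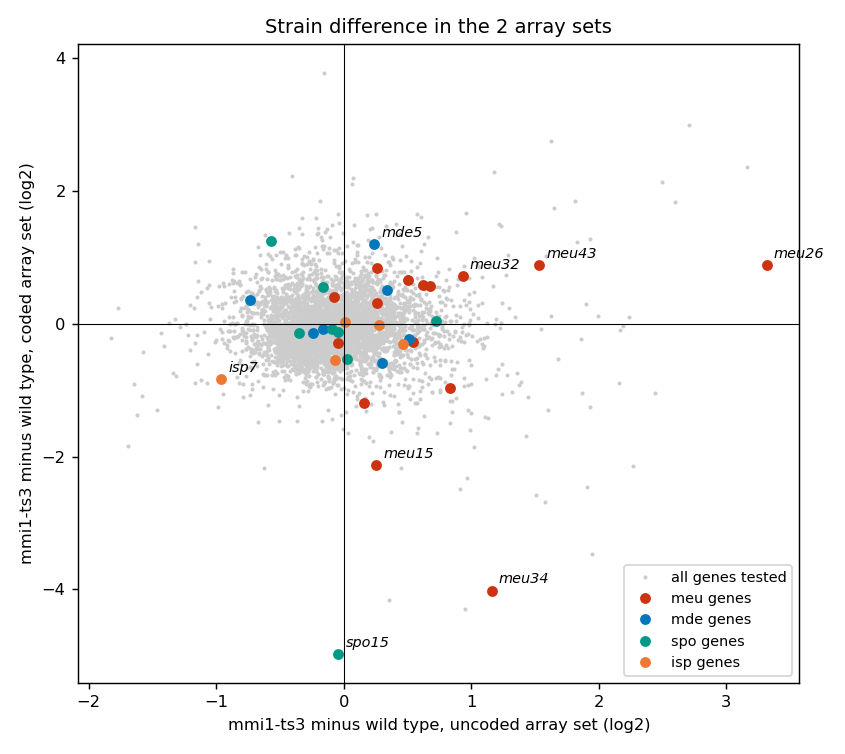
The strain difference in the uncoded set (horizontal axis, log2) against that in the coded set (vertical axis, log2), with all genes tested in grey and the 4 families coloured. The point of meu26 (3.32 and 0.89) and that of meu43 (1.53 and 0.89) lie above 0 in both sets, while spo15 and meu34 lie far below 0 in the coded set alone.

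Other genes of the same processes, from lists chosen by role, were set beside these. The lists are not fully separate. Both mei4 and rsv2 are counted among the sporulation genes and among the regulators. Among the sporulation genes, bgs2, spn5 and spn7 have a synonym of the meu, mde, spo or isp form. Over all genes 13.5% rose and 14.5% fell in the wild type, and 14.9% rose and 19.6% fell in mmi1-ts3. Of 24 sporulation genes with other names, 3 rose and 2 fell in the wild type and 4 rose and 2 fell in mmi1-ts3, with a median strain difference of −0.03. The meiotic cyclin gene crs1, with a difference of 2.76 ± 0.31 SE, was the largest among them, and those of mok12 and mok14, homologues of alpha-glucan synthase, were 0.53 ± 0.32 and −0.50 ± 0.26. In both strains the transcription factor gene rsv2 rose (means 1.99 and 2.25) and psy1, a syntaxin of the forespore membrane, fell (−1.32 and −1.24). Of 15 regulators of entry into meiosis, 3 rose and 0 fell in the wild type and 3 rose and 1 fell in mmi1-ts3. The largest differences were those of atf31 (−1.38 ± 0.62), atf21 (0.96 ± 0.41) and mei2 (0.95 ± 0.40), and atf1, the stress transcription factor, rose in both strains.

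Of 20 measured genes of nitrogen uptake, vacuolar proteolysis and autophagy, 7 rose and 3 fell in the wild type and 6 rose and 3 fell in mmi1-ts3. The shares over all genes were 13.5% and 14.5% in the wild type and 14.9% and 19.6% in mmi1-ts3. In both strains the glutamine synthetase gene gln1 fell (means −3.01 and −3.17) and ppp16 rose (1.84 and 1.91). The peptide transporter gene ptr2 (−0.88 ± 0.31), aat1 (−0.55 ± 0.25) and the ammonium transporter gene amt3 (−0.43 ± 0.26) had the largest differences. Of the 20 genes, 9 had a difference above 0 (39.2% over all genes), and the median difference was −0.06, against −0.07 over all genes. The 86 tested mug genes, another set named for upregulation in meiosis, had a median difference of 0.10, with 15 separated higher and 11 lower. The 114 cytosolic ribosomal protein genes had −0.32, with 0 separated higher and 84 lower. Over all genes 9.31% were separated higher and 20.4% lower. With the main centring none of the genes in these lists passed the test of the strain difference. The smallest adjusted p of all genes tested was that of crs1 (0.254 by limma). With centring on neighbouring spots, crs1, mug8, mug9 and mug45 passed as higher.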

How the data were processed

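The deposited table holds 1 log ratio per spot and array, read here as log2 from the values: the highest, 7.81, exceeds the base-10 range of a 16-bit scanner (4.82), and a natural log is possible. What the authors did before they deposited these log2 values (background, normalization, filters, ratio direction) (like the log base) is not stated in the sources used here. Per the labels, channel 1 is 36 °C RNA (Cy5 by the label field, Cy3 by the protocol), without mention of a dye swap; a shared dye effect cancels in the strain difference. Of 5188 spots, 4933 carry 1 gene; 4930 matched RefSeq ASM294v3 by gene ID, used for names. Spots without a value numbered 5 and 67 in the wild type and 4 and 56 in mmi1-ts3. Spots of a gene were averaged and arrays centred (medians −0.10, 0.07, −0.002 and 0.10). A group-means model was fitted with limma 3.58.1 (R 4.3.3, residual df 2, prior df 3.56) to all 4 arrays. The fit of the wild-type response was also run on simulated data with independent arrays and no strain difference. That run cannot test the strain difference or effects shared by an array set. A permutation of 2 against 2 arrays is too small to pass, so none is given. The number of arrays limits the precision. The members and lists were chosen with earlier results of these data known, and no list is independent evidence. Per-array values are given for genes that passed in a strain, for the 8 largest strain differences, for gaps over 2 log2 units, and for other genes chosen after their values were seen. From the lists of sporulation genes, of regulators and of nitrogen and autophagy genes, the 3 largest differences and 2 largest mean responses are named. No heat shock gene is named.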

Additional observations from a re-analysis of the deposited data

Results flagged for a closer look

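In meu10 and meu43 both wild-type arrays lay below 0 and both mmi1-ts3 arrays above 0. Of these 4 responses only the rise of meu43 in mmi1-ts3 passed the test, so opposite movement was not shown. Without centring on the median, wild-type replicate 2 of meu43 stood at 0.04 and the pattern held for meu10 alone of the pair. The strain difference was 0.58 for meu10 and 1.21 for meu43, and neither passed the limma test over all genes (adjusted p = 0.998 for both). The pattern was present in 44 of 4771 genes (0.922%) and in 2 of the 35 genes described here (5.71%). The opposite pattern, above 0 in the wild type and below 0 in mmi1-ts3, was present in 1.45% of all genes and in 0 of the 35.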

How the results depend on the processing

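The counts of genes called, of the 35 genes called or separated, and their medians were recomputed under the alternatives, of which leaving out the 5 genes in the last 400 lines was chosen after the data were seen. At an adjusted p under 0.01 the wild-type counts were 262 higher and 284 lower over all genes and 1 and 1 among the 35, and in mmi1-ts3 327, 472, 2 and 0. With the array set as a replicate block, 5 of the 35 were lower in each strain, and 1 (isp7) had a lower difference at an unadjusted p under 0.05; the smallest adjusted p of a difference among the 35 was then 0.772. The numbers share no known source, so the block is a block on the array set only; the deviations of same-numbered arrays correlated with r = 0.379 over genes. With centring within runs of 25 lines on each side, 4 of the 35 were lower in mmi1-ts3, the mmi1-ts3 median was 0.16, 3 (isp7, mde1 and spo12) were separated lower, and 5 genes outside the 35 passed as higher in the difference (crs1, mug8, mug9, mug45 and rec8). Each strain fitted alone gave 4 lower in mmi1-ts3. Read as natural logarithms, the mmi1-ts3 median was 0.47. With arrays scaled to 1 spread, 3 of the 35 had a higher difference at an unadjusted p under 0.05. With 1 array left out, which leaves the single array of that strain to vary as the others do, the wild-type counts over all genes ran from 353 to 680 higher and from 296 to 666 lower, and those of mmi1-ts3 from 367 to 819 and from 514 to 974. Among the 35 they ran from 2 to 7 and from 0 to 3 in the wild type, and from 2 to 8 and from 0 to 4 in the mutant, and the mmi1-ts3 median from 0.10 to 0.33. Of the differences over all genes 0 to 2 passed as higher. Among the 35, 12 to 17 were then separated higher and 5 to 13 lower, since fewer arrays have to be apart, and 3 to 4 were higher and 0 to 4 lower at an unadjusted p under 0.05. The difference of meu34 ran from −4.47 to 1.61 and that of spo15 from −5.78 to 0.77, with the sign turned without wild-type replicate 2. The strain difference of 20 of the 35 took both signs with 1 array left out, and of 7 under another setting. The members numbered 38 by array annotation and 49 with synonyms; the 11 added genes had a median difference of 0.04, with 2 of 11 separated higher. The planned counts of motifs in sequences were not run. Arrays were too few, and their log ratios carry no signal level, to say which spots were near background. The remaining 235 recomputed counts and medians stayed within 1.5 times, or within the spread between arrays, of those reported. Many of these could not change, so their number is no measure of stability. A robust or block fit leaves medians and separated counts as they are, and leaving out an array of a strain does not move the median response of the other. For the median strain difference of the 35 the spread between arrays was 0.23, wider than the median of 0.08 itself. With arrays scaled to 1 spread this median was −0.04, so its sign depended on the scaling.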
